A study of Mus musculus with 12 samples.

Results

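A set of 40 genes of the autophagy machinery was followed in thioglycolate-elicited peritoneal macrophages of mice by RNA-seq. They were chosen by gene symbol from a list of the core machinery and its first cargo receptors, and all 40 were in the deposited count table of 12339 genes. The libraries fell into 4 groups of 3, which crossed genotype with diet. WT mice and meKO mice were each kept on chow or given a high-fat diet, here called HFD. The study's title names protein kinase C epsilon of myeloid cells, and meKO is taken to mean that its gene, Prkce, was deleted in myeloid cells, and the recombinase line that made it was not named in the labels. Every mouse, the chow controls included, had been injected at 8 weeks of age with AAV8PCSK9, a virus that takes the LDL receptor away from hepatocytes. With the HFD this makes the animals hypercholesterolemic. Thioglycolate, an irritant that draws monocytes and macrophages into the peritoneum, was given 4 weeks after the injection and diet change. The protocol describes 8 mice of each genotype, 4 of them on the HFD. The 12 libraries examined here were 3 per group, and whether a library came from 1 animal or from pooled animals was not stated. The p-values therefore measure the spread between these samples, which may in part be technical.

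Autophagy encloses cytoplasm, organelles or microbes in a new double membrane and delivers them to the lysosome. The ULK kinase complex starts the process, a class III phosphatidylinositol 3-kinase complex marks the membrane with lipid, and ATG2, ATG9 and the WIPI proteins bring lipid and vesicles to it. Ubiquitin-like conjugation enzymes then attach ATG8 proteins (the LC3 and GABARAP families) to the membrane, the ATG4 proteases process ATG8 proteins, and receptors such as p62 tie cargo to them. In macrophages autophagy is known for breaking down lipid droplets and for restraining inflammasomes, and mice whose macrophages lack Atg5 have been used as a model of faster atherosclerosis.

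The 250 bases before the start of 4 genes are shown as examples from the diet results below. Ambra1, Calcoco1 and Atg14 were lower on the HFD, and Atg3 was higher before a correction for transcript length and not after it. Other genes called lower are not shown, among them Ulk1, whose window lies partly inside the gene. Sequences are from RefSeq, build GRCm38.p6, written 5' to 3' on the gene's own strand. Windows lie at chr2:91729888-91730137 (plus strand) for Ambra1, chr15:102722179-102722428 (minus strand) for Calcoco1, chr14:47568435-47568684 (minus strand) for Atg14 and chr16:45158579-45158828 (plus strand) for Atg3. Capitals mark matches to CACGTG, the E-box core that TFEB and related factors can bind, and to TCACGTGA, a longer form that contains it.
Ambra1: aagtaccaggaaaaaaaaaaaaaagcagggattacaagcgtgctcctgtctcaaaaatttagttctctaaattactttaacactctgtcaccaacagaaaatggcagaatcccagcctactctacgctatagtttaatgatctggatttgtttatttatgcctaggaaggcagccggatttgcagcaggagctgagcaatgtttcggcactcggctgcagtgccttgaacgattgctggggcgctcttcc
Calcoco1: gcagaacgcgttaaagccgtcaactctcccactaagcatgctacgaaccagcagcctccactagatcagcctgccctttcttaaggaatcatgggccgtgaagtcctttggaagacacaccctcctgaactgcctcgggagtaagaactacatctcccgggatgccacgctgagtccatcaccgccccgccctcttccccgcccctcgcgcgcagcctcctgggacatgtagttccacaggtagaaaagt
Atg14: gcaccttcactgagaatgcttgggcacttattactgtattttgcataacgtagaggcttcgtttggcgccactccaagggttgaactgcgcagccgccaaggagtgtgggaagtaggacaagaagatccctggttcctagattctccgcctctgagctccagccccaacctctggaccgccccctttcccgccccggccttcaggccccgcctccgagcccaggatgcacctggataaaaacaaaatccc
Atg3: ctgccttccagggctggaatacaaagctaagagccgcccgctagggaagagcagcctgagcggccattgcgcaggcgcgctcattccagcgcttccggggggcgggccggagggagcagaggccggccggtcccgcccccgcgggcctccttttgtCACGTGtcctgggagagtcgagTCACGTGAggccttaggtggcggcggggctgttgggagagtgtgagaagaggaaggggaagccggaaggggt
CACGTG, searched on both strands, was present in the windows of 3 of the 34 autophagy genes that had one, Atg3, Atg5 and Atg7, which is 8.82%. Of the 34 windows, 17 lie partly or wholly inside the gene as RefSeq annotates it from another start. The match of Atg5 (14 bases before the start used, with 17 bases of the window inside the gene) and that of Atg7 (a window wholly inside the gene) are in such stretches, and those of Atg3 are not. CACGTG was present in 6.04% of 27025 windows of all genes in the same table. Atg3 held 2 matches, 94 and 71 bases before the start, and its second match was the only TCACGTGA among the 34, against 0.803% of all windows. TGTTTAC, a FOXO motif, was found in 0 of the 34 windows and in 3.06% of all windows. TGACNNNGC, the core of the antioxidant response element, was found in 3 of the 34 (Atg13, Vmp1 and, with 242 of 250 bases inside the gene, Ulk2) and in 10.1% of all windows. None of the 4 motifs was in the windows of Ambra1, Calcoco1 or Atg14, which says only that these letters were not in these stretches.

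Libraries held 25844958 to 37282772 counts, and values below are TMM-scaled CPM, the counts of a gene relative to all counts of its library. Prkce, the targeted gene, was at 3.08 ± 1.03 CPM in WT (SD, n = 6) and 1.37 ± 0.347 CPM in meKO (SD, n = 6), diets pooled. The ranges of 2.01 to 4.44 and 0.950 to 1.78 did not overlap. WT chow 1 (4.27) and WT chow 2 (4.44) were highest, and the other WT libraries were at 2.01 to 2.89. Macrophage markers were abundant in every library: Cd68 ranged from 2538 to 3658 CPM and Adgre1 from 513 to 697 CPM. Lyz2, a lysozyme gene of myeloid cells, was at 30482 to 53835 CPM in WT libraries and at 16293 to 21309.5 CPM in 5 of the 6 meKO libraries, while meKO chow 2 had 69.3 CPM. That library thus stood apart from the other meKO libraries in Lyz2. Its Prkce level, 0.950 CPM, was the lowest of the 12, with meKO HFD 2 close to it at 0.954 CPM. Whether meKO chow 2 has the alleles of the other meKO libraries was not tested. Without it, edgeR called 0 of the 40 genes for diet in meKO, for genotype on either diet and for the interaction, as with it, and 12 where it otherwise called 13 for diet averaged over genotypes. WT chow 1 and WT chow 2 stood apart from the other libraries along transcript length. In each library the deviation of a gene's log2 level from its mean over all libraries was set against the length of the gene's longest annotated transcript. Over the 11532 genes with a length, Spearman's rho was 0.60 in WT chow 1 and 0.64 in WT chow 2, and lay between -0.43 and 0.12 in the other libraries. Long transcripts therefore read higher in those 2 libraries. The lowest rho were those of meKO HFD 2 (-0.43), WT HFD 3 (-0.41) and meKO HFD 3 (-0.38), where long transcripts read lower. Set against GC content instead, rho was 0.41 in meKO chow 1 and 0.26 in meKO HFD 1, and lay between -0.20 and 0.10 in the other libraries. For the 13 genes called for diet averaged over genotypes, that difference is also given after a correction for length and GC content. It is given as well without both WT chow 1 and WT chow 2. That last fit keeps 1 WT chow library, so only the size of its differences is given. It also keeps meKO HFD 2, WT HFD 3 and meKO HFD 3, and was not corrected for length.

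Levels per kilobase use each gene's longest annotated transcript, as does the length correction. Whether that transcript is the one expressed was not tested. Gabarap, whose protein is an ATG8 that decorates the autophagosome membrane, had the highest level of the 40 per kilobase of transcript. Its mean was 173 CPM per kilobase, with a range of 114 to 236 over the 12 libraries, at the 97.3 percentile of all genes with a length. Sqstm1, which encodes the cargo receptor p62, followed at 148 (129 to 182), and the range overlapped that of Gabarap. Tax1bp1, another cargo receptor, was at 91.6 (84.8 to 102), Vmp1, an endoplasmic reticulum scramblase, at 82.1 (62.7 to 99.5), and Atg3, the enzyme that transfers ATG8 proteins to lipid, at 72.7 (53.6 to 88.6) CPM per kilobase. These 3 neighbours overlapped in range, whereas Sqstm1 and Tax1bp1 did not. At the low end stood regulators and lipid transfer proteins. Ulk1, the kinase that starts autophagy, was at 3.48 (1.60 to 5.72), Wipi1 at 2.22 (1.04 to 2.96) and Atg2b at 1.71 (1.10 to 2.63) CPM per kilobase. Atg16l2, a relative of the conjugation scaffold Atg16l1, was lowest at 0.586 (0.485 to 0.783), and its range met none of the others shown here. The 40 genes together took 2869 to 3265 CPM of each library.

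**Figure D1:**
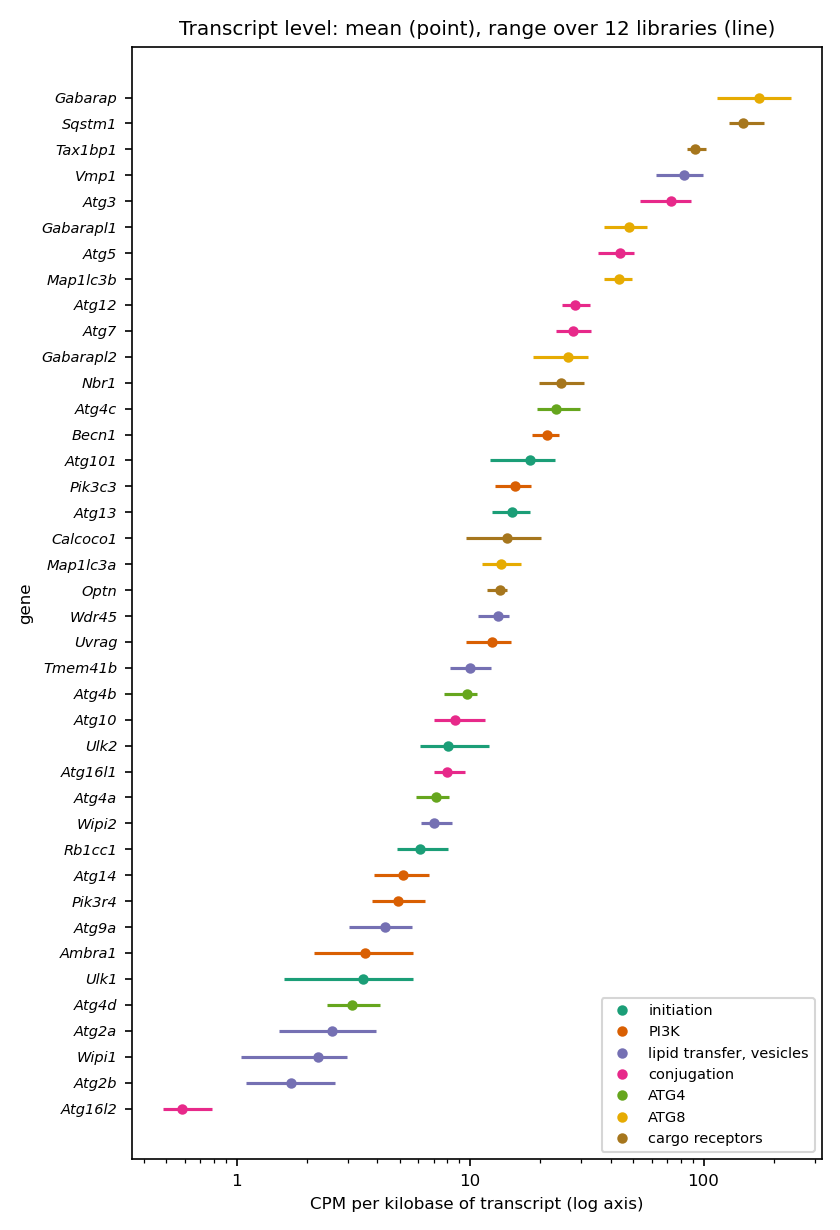
Transcript level of the 40 autophagy genes, in CPM per kilobase of transcript on a log axis; points are means and lines the range over the 12 libraries, coloured by role. Gabarap (173) and Sqstm1 (148) lead, and Atg16l2 (0.586) is lowest.

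On the HFD, averaged over the genotypes, 11 of the 40 genes fell and 2 rose. The 11 were Ulk1, Rb1cc1, Atg14, Ambra1, Atg2a, Atg2b, Atg9a, Wipi1, Atg4c, Gabarapl1 and Calcoco1, and the 2 were Atg3 and Gabarapl2. The contrast is the mean of the WT and meKO diet differences in edgeR's quasi-likelihood test, called at an adjusted p under 0.05 over all genes. Differences below are log2 values, HFD minus chow unless stated otherwise, given ± SE from that fit with its adjusted p. The 13 calls are 32.5% of the list, and 30.2% of all genes were called (14.9% higher and 15.3% lower), so the share changed was near the background. The median log2 difference was -0.06 over the 40 genes and -0.03 over all genes. After the correction for length and GC content 10 of the 40 were called, 25% of the list, where 23.5% of all genes were (12.3% higher and 11.2% lower). Of these, 7 had also been called before it, all lower: Ulk1, Atg14, Ambra1, Atg9a, Atg4c, Gabarapl1 and Calcoco1. Atg10 was called lower only after the correction, and Atg13 and Atg4b were called higher only after it. The fit without both WT chow 1 and WT chow 2 keeps 1 WT chow library, so no count of calls is given for it. The count of the 40 called was 6 without WT chow 1 or without WT HFD 3, beside 16% and 15.9% of all genes. It was 7 without meKO chow 3 (16.5% of all genes), 8 without meKO HFD 2 (18.1%) and 22 without WT chow 3 (43.2%). Limma voom with library weights called 27, where it called 51.0% of all genes. Ulk1, Ambra1, Atg14 and Calcoco1 were called in each of the 19 alternatives planned for this contrast. The fits chosen after seeing the data, such as that without both WT chow 1 and WT chow 2, are not among these 19.

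Split by genotype, the diet difference was called for 9 of 40 genes in WT and for 0 of 40 in meKO. In WT, Ulk1, Ambra1, Atg14, Atg2b, Atg9a, Atg16l2 and Calcoco1 fell and Atg3 and Gabarapl2 rose, which is 22.5% of the list beside 21.3% of all genes (9.5% higher and 11.8% lower). After the length and GC correction 7 of 40 were called in WT, beside 13.1% of all genes (7.49% higher and 5.58% lower): Ambra1, Atg10 and Gabarapl1 lower, and Atg13, Atg4b, Atg4d and Map1lc3b higher. Ambra1 was the only gene called both before and after it. The uncorrected count in WT was 0 without WT chow 1, WT chow 2 or WT HFD 3, where 1.05%, 2.59% and 0.778% of all genes were called. It was 1 without WT HFD 1 (3.73% of all genes) and 4 without meKO HFD 3 (17.1%). Without meKO chow 1 or 2 it was 5 (18% and 18.7%), and without WT chow 3 it was 17 (39.9%). In meKO edgeR called 0.105% of all genes. There 10 of the 40 had an unadjusted p under 0.05, as did 1962 of all 12339 genes. Limma voom called 0 of the 40 and DESeq2 called 1, Atg4c, where they called 3.23% and 1.83% of all genes. The interaction between genotype and diet was called by edgeR for 0 of the 40, where 0.0162% of all genes were, so the difference between 9 calls and 0 is not one that this test showed between the genotypes. The WT and meKO diet differences, which share no library, had the same sign for 31 of the 40 genes (77.5%), and for 76.4% of all genes. Across the 40 genes, which are not independent replicates, Pearson's r between the WT and meKO differences was 0.80 and Spearman's rho 0.81, beside 0.59 and 0.66 over all genes. Both also ran with transcript length: rho between log2 difference and length was -0.59 in WT and -0.42 in meKO over the 40 genes, and -0.54 and -0.31 over all genes. After the correction these were 0.01 and 0.01 over the 40 genes. In WT the libraries of chow and HFD did not overlap for 20 of the 40 genes (9 higher), beside 39.3% of all genes, and in meKO for 7 (1 higher), beside 19.7%.

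**Figure D2:**
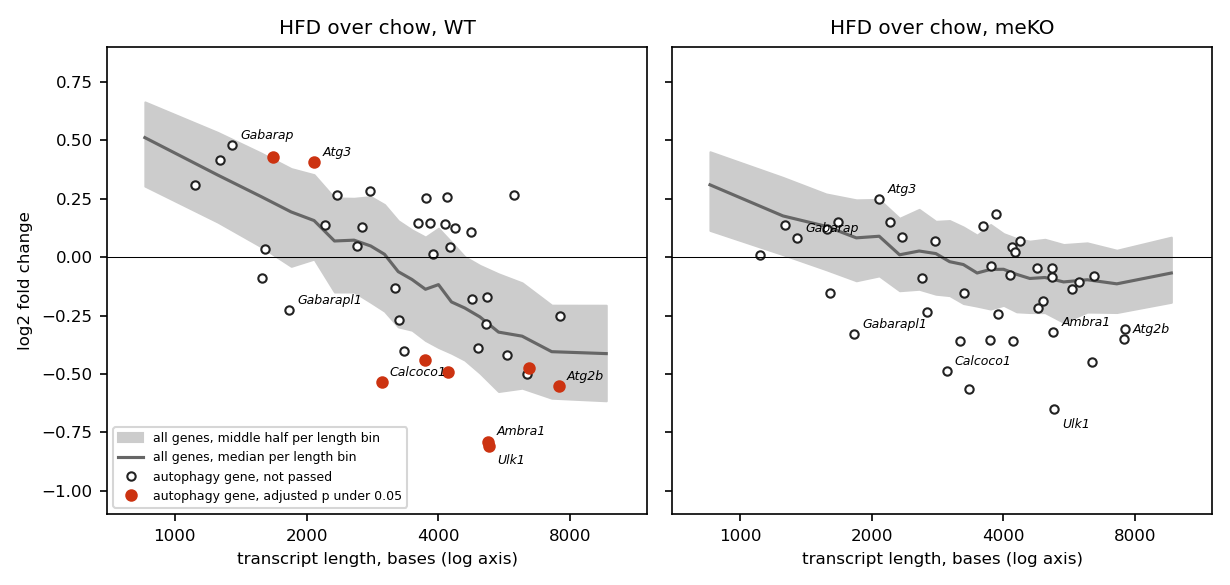
Log2 difference of HFD over chow against transcript length (log axis, bases) in WT and in meKO; points are the 40 autophagy genes, filled where edgeR's adjusted p was under 0.05, and line and band are the median and quartiles of all genes in bins of length. In WT the all-gene median runs from 0.51 in the shortest bin to -0.41 in the longest; Ulk1 (-0.81) and Ambra1 (-0.79) lie below the band at their length, and Atg3 (0.41) lies above it.

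Some markers of other cells were called for diet averaged over genotypes. Of all genes, 30.2% were called in that contrast (14.9% higher and 15.3% lower), and 23.5% after the length and GC correction. The 5 B cell markers found of 6 listed summed to 106 to 163 CPM in WT chow and 51.9 to 87.2 CPM in WT HFD, and to 72.2 to 159 and 55.5 to 110.2 CPM in meKO chow and HFD. All 5 fell on the HFD averaged over genotypes, and Pax5 was not in the table. The 8 mesothelial and stromal markers summed to 40.4 to 62.1 CPM in WT chow, 68.3 to 94.6 in WT HFD, 44.1 to 67.5 in meKO chow and 79.0 to 114 in meKO HFD, and 3 of the 8 rose. Of the other marker lists, averaged over genotypes, 4 of 7 macrophage markers fell and 1 rose, 2 of 6 dendritic cell markers fell, 2 of 4 neutrophil markers rose and 1 fell, 1 of 7 markers of resident large peritoneal macrophages rose and 1 fell, and 1 of 5 T and NK cell markers fell. None of the 6 mast cell and 2 eosinophil markers was called. The share called was 100% of the B cell, 75% of the neutrophil, 71.4% of the macrophage and 37.5% of the mesothelial and stromal markers. It was 33.3% of the dendritic cell, 28.6% of the resident macrophage and 20% of the T and NK cell markers. After the length and GC correction 0 neutrophil markers rose and 1 fell, 2 macrophage markers fell and 1 rose, and 4 mesothelial and stromal markers rose. The counts of the other marker lists were the same. The part of these cells in the results below was not tested. In such bulk samples, fewer cells that use a gene and less of its RNA per cell cannot be told apart.

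**Figure D3:**
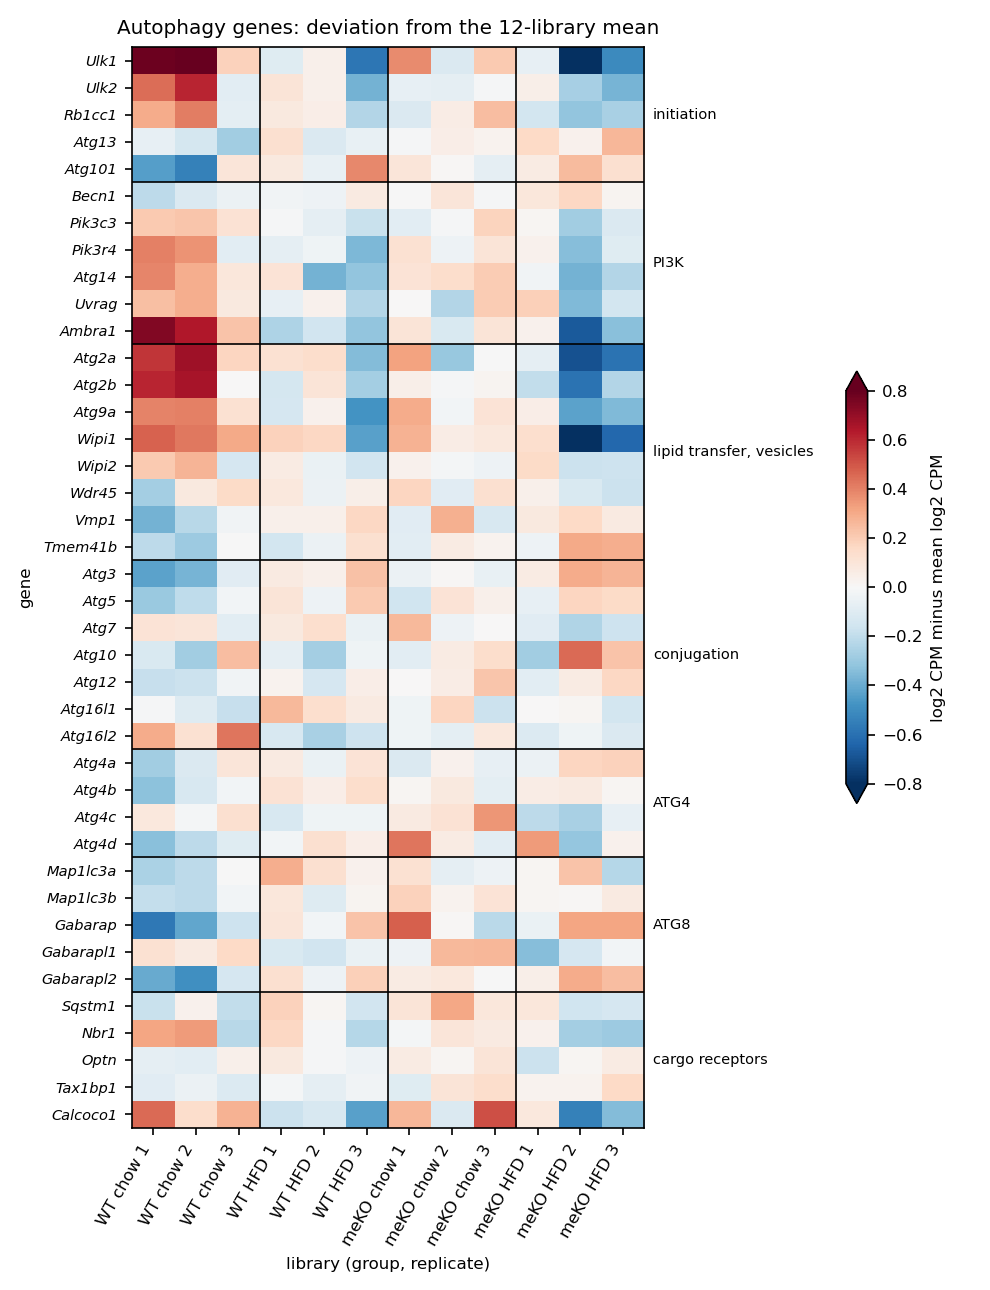
Deviation of each autophagy gene's log2 CPM from its mean over the 12 libraries; rows are the 40 genes ordered by role, columns the libraries by group and replicate, and colour runs from blue (lower) to red (higher). The columns WT chow 1 and WT chow 2 are red for Ulk1, Ambra1 and Atg2b and blue for Gabarap, Gabarapl2 and Atg3.

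The initiation complex has 5 listed genes. The shares of all genes to set beside the counts by role were 15.3% lower and 14.9% higher averaged over genotypes. Averaged over genotypes, Ulk1 and its scaffold Rb1cc1 (FIP200) fell, 0 rose, and Ulk2 (-0.28 ± 0.12, adjusted p = 0.104), Atg101 (0.28 ± 0.12, adjusted p = 0.0832) and Atg13 were not called. Ulk1 encodes the kinase that nutrient sensors switch on or off. Its libraries stood at 29.3, 29.8 and 19.3 CPM in WT chow, 15.96, 17.6 and 11.4 in WT HFD, 22.2, 15.7 and 19.7 in chow-fed meKO and 16.3, 8.32 and 11.95 in meKO HFD. All WT HFD libraries lay below all WT chow libraries, with 17.6 and 19.3 nearest each other, while the meKO groups overlapped through 16.3 and 15.7. The log2 difference was -0.73 ± 0.17 (adjusted p = 0.0106) averaged over genotypes. It was -0.81 ± 0.24 (adjusted p = 0.0335) in WT and -0.65 ± 0.24 (adjusted p = 0.261) in meKO. After the length and GC correction the averaged difference of Ulk1 was -0.45 ± 0.10 (adjusted p = 0.0100) and the WT difference -0.37 ± 0.14 (adjusted p = 0.0890), so the averaged call was kept and the WT call was not. Without both WT chow 1 and 2 the averaged difference was -0.51. Rb1cc1 stood at 56.7, 61.1 and 43.7 CPM in WT chow, 48.5, 47.8 and 39.1 in WT HFD, 42.5, 48.04 and 54.6 in chow-fed meKO and 41.6, 36.9 and 38.5 in meKO HFD. Here the meKO groups were apart and the WT groups overlapped. Its averaged log2 difference was -0.28 ± 0.10 (adjusted p = 0.0483), -0.16 ± 0.07 (adjusted p = 0.136) after the correction and -0.13 without both WT chow 1 and 2. Atg13, the adaptor of the complex, was at 51.9, 49.2 and 44.8 CPM in WT chow and 59.4, 50.1 and 52.1 in WT HFD, which overlapped. It was called higher only after the correction, with 0.26 ± 0.06 (adjusted p = 0.0132) averaged and 0.33 ± 0.09 (adjusted p = 0.0330) in WT.

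In the lipid kinase complex and its regulators 2 of 6 genes fell averaged over genotypes, Ambra1 and Atg14, and 0 rose. Ambra1 encodes a scaffold that links ULK1 to Beclin 1 and the lipid kinase. It was at 29.6, 27.7 and 20.8 CPM in WT chow, 14.98, 15.9 and 14.3 in WT HFD, 19.03, 16.3 and 19.04 in chow-fed meKO and 18.2, 11.1 and 14.1 in meKO HFD. The WT chow libraries were all above every other library of the 12. Its log2 difference was -0.56 ± 0.12 (adjusted p = 0.00908) averaged, -0.79 ± 0.17 (adjusted p = 0.0148) in WT and -0.32 ± 0.17 (adjusted p = 0.365) in meKO. The correction left -0.31 ± 0.07 (adjusted p = 0.0129) averaged and -0.40 ± 0.10 (adjusted p = 0.0289) in WT. Without both WT chow 1 and 2 the averaged value was -0.40. Atg14 encodes the subunit that directs the lipid kinase to autophagosome formation. Its levels were 24.8, 23.1 and 20.1 CPM in WT chow, 20.4, 14.5 and 15.2 in WT HFD, 20.4, 20.8 and 21.7 in chow-fed meKO and 18.6, 14.6 and 16.1 in meKO HFD. The meKO groups did not overlap, and in WT only the highest HFD library reached into the chow range. The averaged log2 difference was -0.40 ± 0.10 (adjusted p = 0.0148), and the WT difference was -0.44 ± 0.15 (adjusted p = 0.0462). After the correction the averaged one was -0.30 ± 0.09 (adjusted p = 0.0252), and without both WT chow 1 and 2 it was -0.31. Becn1 (Beclin 1), the core regulatory subunit, was at 80.5, 86.03 and 90.2 CPM in WT chow, 91.5, 90.8 and 98.03 in WT HFD, 92.8, 99.7 and 92.4 in chow-fed meKO and 99.4, 105 and 94.7 in meKO HFD. Its averaged log2 difference was 0.10 ± 0.07 (adjusted p = 0.264), and 0.18 ± 0.06 (adjusted p = 0.0557) after the correction. The catalytic subunit Pik3c3 (-0.21 ± 0.08, adjusted p = 0.0542) and its partner Pik3r4 (-0.29 ± 0.10, adjusted p = 0.0509) were just outside the threshold, and Uvrag was at -0.19 ± 0.10 (adjusted p = 0.185).

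Genes for lipid transfer and vesicle supply gave 4 of 8 lower averaged over genotypes, and 0 higher, where 30.2% of all genes were called. After the length and GC correction 1 of the 8 was called, 12.5% beside 23.5% of all genes. Genes called before it are named first. The 4 were Atg9a, Atg2b, Atg2a and Wipi1. Wipi2 (-0.11), Wdr45 (-0.06), Vmp1 (0.18) and Tmem41b (0.17) were not called. Atg9a encodes a membrane protein of the vesicles that seed the autophagosome. Its libraries were at 23.5, 23.7 and 19.4 CPM in WT chow, 16.3, 18.3 and 12.8 in WT HFD, 21.99, 17.6 and 19.3 in chow-fed meKO and 18.5, 13.3 and 13.98 in meKO HFD. The WT groups did not overlap and the meKO groups did. The averaged log2 difference was -0.42 ± 0.12 (adjusted p = 0.0181), with -0.49 ± 0.16 (adjusted p = 0.0481) in WT. After the correction it was -0.21 ± 0.07 (adjusted p = 0.0464) averaged and -0.18 ± 0.10 (adjusted p = 0.239) in WT, and without both WT chow 1 and 2 the averaged value was -0.33. The transporters ATG2A and ATG2B carry lipid from the endoplasmic reticulum. Atg2b was at 19.2, 19.9 and 12.6 CPM in WT chow, 11.4, 13.5 and 10.4 in WT HFD, 12.95, 12.5 and 12.7 in chow-fed meKO and 10.9, 8.32 and 10.6 in meKO HFD. Atg2a was at 23.3, 25.2 and 17.7 CPM in WT chow, 17.1, 17.4 and 12.3 in WT HFD, 19.7, 12.8 and 15.7 in chow-fed meKO and 14.9, 9.69 and 10.4 in meKO HFD. The meKO groups were apart for Atg2b, and the WT groups for Atg2a. Averaged log2 differences were -0.45 ± 0.12 (adjusted p = 0.0185) for Atg2b and -0.48 ± 0.15 (adjusted p = 0.0292) for Atg2a, and the Atg2b difference in WT was -0.55 ± 0.17 (adjusted p = 0.0400). Both calls were lost after the correction, at -0.20 ± 0.07 (adjusted p = 0.0591) for Atg2b and -0.15 ± 0.08 (adjusted p = 0.185) for Atg2a. These are the longest transcripts of the 40 beside Rb1cc1 and Atg16l2. Wipi1, a sensor of the lipid mark, had the largest p among the 13 calls at -0.48 ± 0.17 (adjusted p = 0.0494), and -0.41 ± 0.16 (adjusted p = 0.0761) after the correction. With WT chow 1 and 2 both left out, the averaged differences were -0.23 for Atg2b, -0.32 for Atg2a and -0.44 for Wipi1.

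Among the 7 conjugation genes 1 rose averaged over genotypes, Atg3, and 0 fell. Atg3 encodes the E2-like enzyme for ATG8 lipidation, and its promoter window is the one above with both E-box matches. It was at 112, 116 and 141 CPM in WT chow, 158, 154 and 176 in WT HFD, 145, 150.4 and 144 in chow-fed meKO and 157, 184 and 181 in meKO HFD. HFD libraries lay above the chow libraries of their own genotype in both genotypes. The log2 difference was 0.33 ± 0.08 (adjusted p = 0.0114) averaged, 0.41 ± 0.11 (adjusted p = 0.0260) in WT and 0.25 ± 0.11 (adjusted p = 0.302) in meKO. After the length and GC correction it was 0.09 ± 0.05 (adjusted p = 0.218) averaged and 0.10 ± 0.07 (adjusted p = 0.381) in WT, so neither call was kept. The averaged difference of Atg3 without both WT chow 1 and 2 was 0.23. Atg16l2 fell in WT, from 4.61, 4.08 and 5.06 CPM to 3.43, 3.13 and 3.34, at -0.47 ± 0.16 (adjusted p = 0.0463). Its meKO libraries were at 3.67, 3.56 and 3.97 CPM on chow and 3.47, 3.66 and 3.45 on the HFD, and the correction left -0.15 ± 0.20 (adjusted p = 0.644) in WT. The WT difference of Atg16l2 without both WT chow 1 and 2 was -0.61. Atg5, part of the complex that acts as the E3-like ligase for ATG8 proteins, was at 83.5, 89.2 and 101 CPM in WT chow, 110.1, 99.9 and 119 in WT HFD, 92.00, 111 and 106 in chow-fed meKO and 98.1, 116 and 114 in meKO HFD. Its groups overlapped in both genotypes, and its averaged log2 difference was 0.18 ± 0.08 (adjusted p = 0.113), and 0.04 ± 0.05 (adjusted p = 0.619) after the correction. Atg7, the E1-like enzyme, was at 115, 114 and 101 CPM in WT chow, 113, 117 and 103 in WT HFD, 128, 104 and 108 in chow-fed meKO and 101, 90.7 and 95.6 in meKO HFD. Its meKO HFD libraries, the highest at 100.7, lay below the other 9, the lowest of which was WT chow 3 at 100.9, and the averaged difference was -0.12 ± 0.08 (adjusted p = 0.259). Atg16l1, the scaffold that places the ligase on the membrane, was at 29.7, 27.8 and 26.3 CPM in WT chow, 35.7, 32.7 and 31.4 in WT HFD, 29.2, 33.6 and 26.5 in chow-fed meKO and 29.9, 30.2 and 27.00 in meKO HFD. The WT groups were apart, with a WT difference of 0.25 ± 0.11 (adjusted p = 0.116) and an averaged one of 0.11 ± 0.08 (adjusted p = 0.317). Atg12, the ubiquitin-like partner of Atg5, had an averaged difference of 0.03 ± 0.07 (adjusted p = 0.770). Atg10, the E2-like enzyme for Atg12, was at 0.02 ± 0.13 (adjusted p = 0.933) before and -0.32 ± 0.08 (adjusted p = 0.0126) after the correction, the one change of sign with a call among the 40.

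Of the 4 ATG4 proteases, Atg4c fell and 0 rose averaged over genotypes. Atg4c libraries were at 77.9, 72.9 and 80.4 CPM in WT chow, 67.3, 71.99 and 71.9 in WT HFD, 77.2, 79.6 and 93.9 in chow-fed meKO and 63.5, 61.6 and 70.2 in meKO HFD. HFD and chow libraries did not overlap in either genotype. The log2 difference was -0.25 ± 0.07 (adjusted p = 0.0256) averaged, -0.13 ± 0.10 (adjusted p = 0.365) in WT and -0.36 ± 0.10 (adjusted p = 0.182) in meKO, the smallest p of the 40 genes in meKO. After the correction it was -0.28 ± 0.06 (adjusted p = 0.00896) averaged, and without both WT chow 1 and 2 it was -0.28. Leaving out 1 library ended the uncorrected call in 5 of 12 cases, which were WT chow 1, WT HFD 1, WT HFD 3, meKO chow 3 and meKO HFD 2. Atg4b, the protease with the broadest activity on ATG8 proteins, was at 32.2, 37.01 and 39.8 CPM in WT chow and 43.9, 41.8 and 44.6 in WT HFD. It was called higher in WT only after the correction, at 0.43 ± 0.11 (adjusted p = 0.0312), as was Atg4d at 0.66 ± 0.18 (adjusted p = 0.0320). Atg4a was not called, at 0.14 ± 0.09 (adjusted p = 0.226) averaged.

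In the ATG8 family, whose proteins are paralogs of similar sequence, Gabarapl2 rose and Gabarapl1 fell averaged over genotypes, and the other 3 were not called. How reads that fit several genes were counted was not given in the sources used here, so levels in this family are less certain. Gabarapl1 was at 94.5, 91.1 and 96.8 CPM in WT chow, 79.7, 78.2 and 83.5 in WT HFD, 84.5, 104 and 104 in chow-fed meKO and 68.5, 79.2 and 85.4 in meKO HFD. The WT groups were apart, and the meKO groups overlapped only through 84.5 on chow and 85.4 on the HFD. Its averaged log2 difference was -0.28 ± 0.08 (adjusted p = 0.0207), and at -0.42 ± 0.08 (adjusted p = 0.00475) it was larger after the correction, which also brought the WT difference to -0.39 ± 0.11 (adjusted p = 0.0329). This short transcript moved against the trend of short transcripts. Without both WT chow 1 and 2 the averaged difference was -0.30, and leaving out meKO chow 3 alone ended the uncorrected call. Gabarapl2 was at 32.99, 31.1 and 39.8 CPM in WT chow, 47.7, 42.5 and 49.8 in WT HFD, 45.8, 46.3 and 43.7 in chow-fed meKO and 45.2, 53.6 and 51.8 in meKO HFD. All 3 WT chow libraries were the lowest of the 12. The averaged log2 difference was 0.29 ± 0.08 (adjusted p = 0.0222) and the WT one 0.43 ± 0.12 (adjusted p = 0.0266); the correction left 0.04 ± 0.05 (adjusted p = 0.642) and 0.10 ± 0.07 (adjusted p = 0.367). The averaged difference of Gabarapl2 without both WT chow 1 and 2 was 0.19. Gabarap itself was at 154, 171 and 204 CPM in WT chow, 245, 225 and 268 in WT HFD, 319, 231 and 197 in chow-fed meKO and 220.1, 285 and 285 in meKO HFD. WT groups did not overlap, but the difference in WT was 0.48 ± 0.17 (adjusted p = 0.0580) and the averaged one 0.28 ± 0.12 (adjusted p = 0.0901). Map1lc3b, the LC3 protein most used as an autophagosome marker, was at 157, 156 and 177 CPM in WT chow, 192, 167 and 182 in WT HFD, 204, 183 and 194 in chow-fed meKO and 182, 181 and 189 in meKO HFD. Its averaged difference was 0.03 ± 0.07 (adjusted p = 0.728), and in WT it was called only after the correction, at 0.35 ± 0.11 (adjusted p = 0.0499). Map1lc3a was at 0.16 ± 0.10 (adjusted p = 0.224) averaged.

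Of the 5 cargo receptors Calcoco1 fell averaged over genotypes and 0 rose. Calcoco1 encodes a receptor for autophagy of the endoplasmic reticulum and Golgi that was first known as a transcriptional coactivator. It was at 57.1, 45.9 and 50.4 CPM in WT chow, 37.02, 38.1 and 30.9 in WT HFD, 50.2, 38.5 and 59.5 in chow-fed meKO and 44.2, 28.6 and 32.8 in meKO HFD. The WT groups were apart and the meKO groups overlapped through 38.5 on chow and 44.2 on the HFD. Its log2 difference was -0.51 ± 0.13 (adjusted p = 0.0129) averaged, -0.53 ± 0.18 (adjusted p = 0.0488) in WT and -0.49 ± 0.18 (adjusted p = 0.258) in meKO. The correction left -0.40 ± 0.10 (adjusted p = 0.0166) averaged and -0.37 ± 0.15 (adjusted p = 0.0992) in WT, and without both WT chow 1 and 2 the averaged value was -0.50. Sqstm1 was at 347, 403 and 344 CPM in WT chow, 447, 397 and 353 in WT HFD, 423, 486 and 419 in chow-fed meKO and 418, 352 and 358 in meKO HFD. In meKO the HFD libraries lay below the chow libraries, and in WT the groups overlapped. The differences were 0.13 ± 0.12 (adjusted p = 0.436) in WT and -0.24 ± 0.12 (adjusted p = 0.343) in meKO. The averaged differences of the other receptors were -0.20 ± 0.11 (adjusted p = 0.169) for Nbr1, -0.02 ± 0.07 (adjusted p = 0.856) for Optn and 0.03 ± 0.07 (adjusted p = 0.736) for Tax1bp1.

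**Figure D4:**
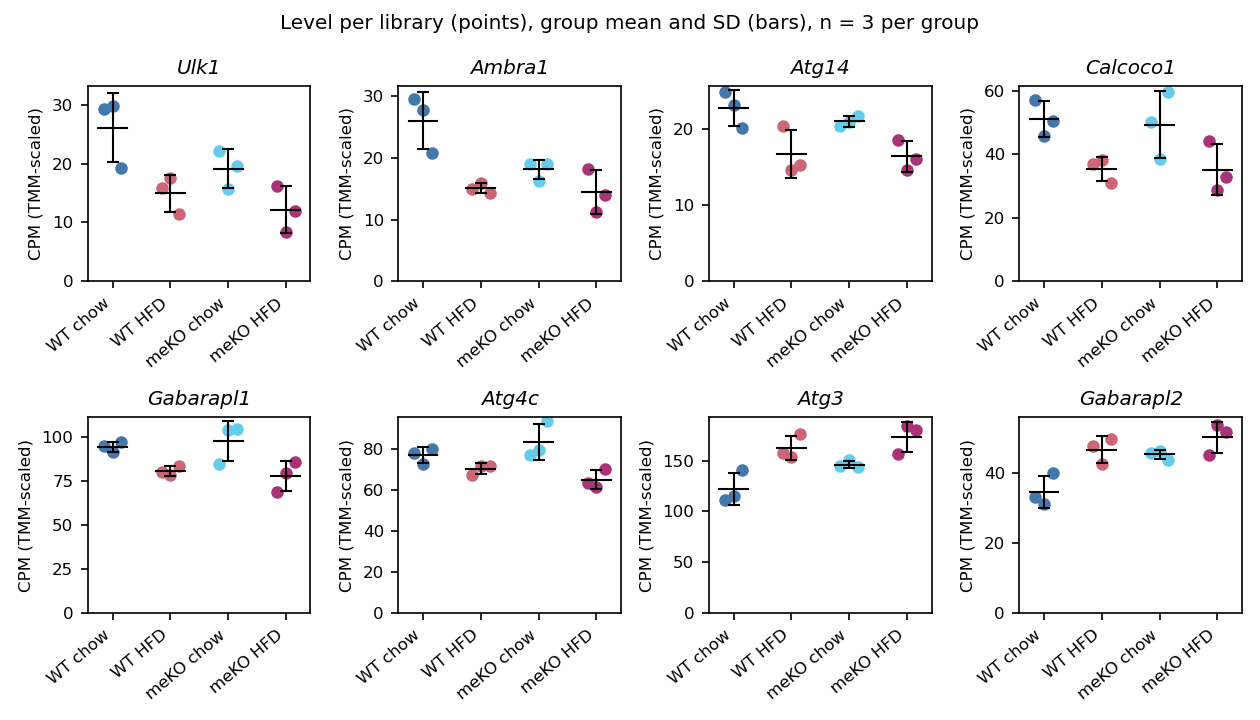
Level (CPM) of 8 autophagy genes in each library, one panel per gene and one column per group; points are libraries, horizontal bars the mean and whiskers the SD (n = 3 per group). Ulk1, Ambra1, Atg14, Calcoco1, Gabarapl1 and Atg4c have lower means on the HFD in both genotypes, and Atg3 and Gabarapl2 higher ones.

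**Figure D5:**
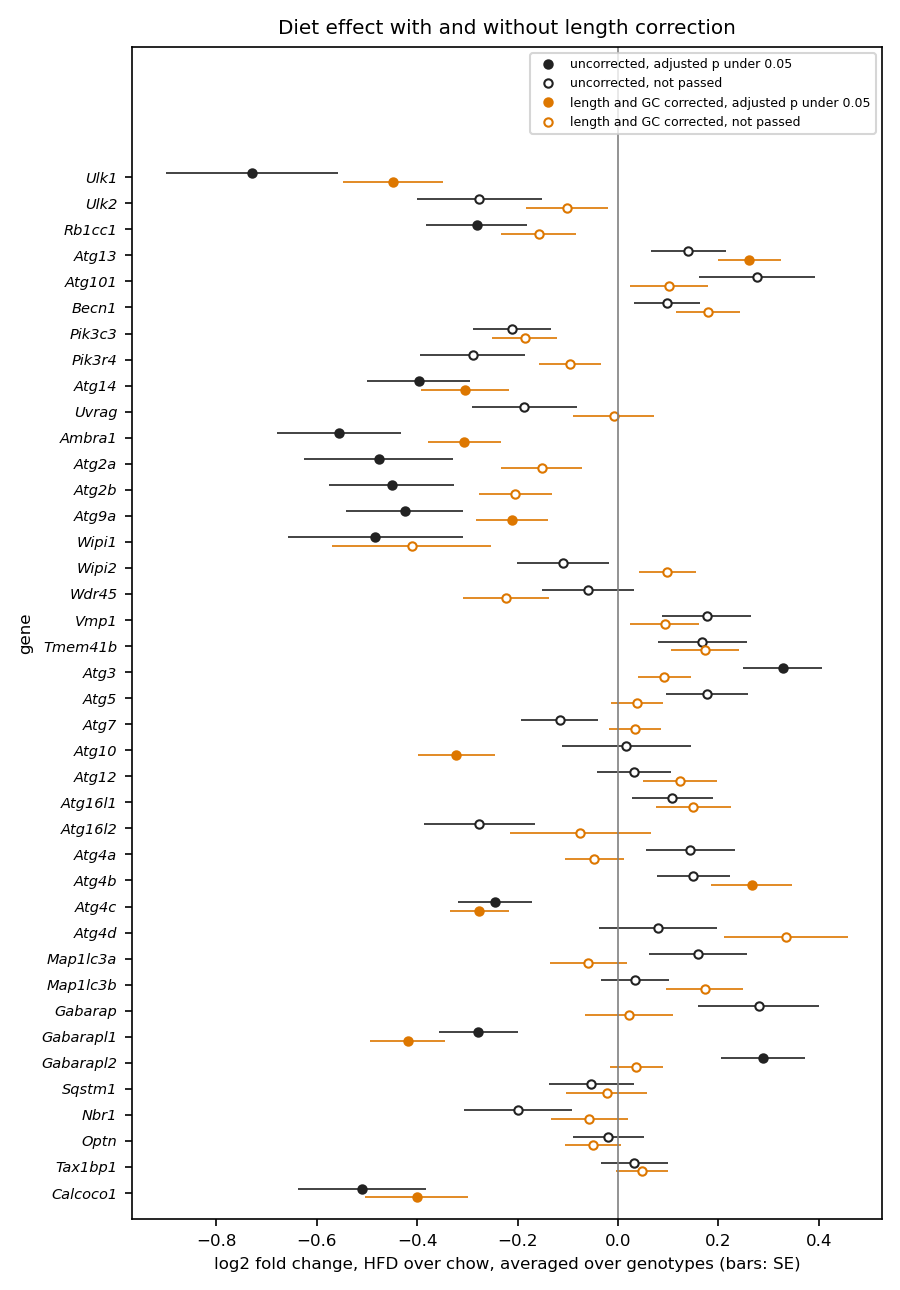
Log2 difference of HFD over chow averaged over genotypes for the 40 autophagy genes, uncorrected (black) and after the length and GC correction (orange); whiskers are the SE and filled points passed edgeR's adjusted p of 0.05. Ulk1, Ambra1, Atg14, Atg9a, Atg4c, Gabarapl1 and Calcoco1 are filled to the left of 0 in both colours, while Atg3 (0.33 and 0.09) and Gabarapl2 (0.29 and 0.04) lose their call.

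The question of whether loss of Prkce in myeloid cells changed these genes was addressed on each diet. On chow edgeR called 0 of the 40 between meKO and WT, where 0.081% of all genes were called. There 10 of the 40 had an unadjusted p under 0.05, as did 2447 of all 12339 genes. In log2 differences of meKO minus WT, the smallest p belonged to Gabarapl2, at 0.39 ± 0.12 (adjusted p = 0.128), then to Ambra1 at -0.52 ± 0.17 (adjusted p = 0.142), Gabarap at 0.49 ± 0.17 (adjusted p = 0.154) and Map1lc3b at 0.25 ± 0.10 (adjusted p = 0.187). Gabarapl2, Ambra1 and Map1lc3b had groups that did not overlap on chow, as did 11 of the 40 in all (8 higher in meKO), beside 17.1% of all genes. DESeq2 called 1, Gabarapl2, where it called 4.56% of all genes, and limma voom with library weights called 14, where it called 32.8%. Leaving out WT chow 3 brought 8 calls in edgeR, where 20.6% of all genes were called. The comparison uses WT chow 1 and 2, and over the 40 genes rho between log2 difference and length was -0.59 (-0.60 over all genes). After the length and GC correction the differences were 0.18 ± 0.07 (adjusted p = 0.283) for Gabarapl2, -0.23 ± 0.10 (adjusted p = 0.311) for Ambra1, 0.28 ± 0.12 (adjusted p = 0.314) for Gabarap and 0.37 ± 0.11 (adjusted p = 0.177) for Map1lc3b. Without both libraries, a fit that keeps 1 WT chow library, the value was 0.18 for Gabarapl2, -0.20 for Ambra1, 0.28 for Gabarap and 0.13 for Map1lc3b. The 4 neutrophil markers found of 6 listed summed to 16.8 to 25.1 CPM in WT chow and 30.5 to 50.01 CPM in meKO chow, and their part in the result was not tested.

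On the HFD edgeR called 0 of the 40 between meKO and WT, where 0.081% of all genes were called. None of the 40 had an unadjusted p under 0.05, where 563 of all 12339 genes had, and DESeq2 and limma voom also called 0 of the 40. The smallest p were those of Atg7 (-0.22 ± 0.11, adjusted p = 0.999), Atg2a (-0.41 ± 0.21, adjusted p = 0.999), Atg16l1 (-0.20 ± 0.11, adjusted p = 0.999) and Wipi1 (-0.41 ± 0.25, adjusted p = 0.999). Libraries of the genotypes did not overlap on the HFD for 4 of the 40 (2 higher in meKO), beside 10.3% of all genes. Log2 differences of the 40 ran from -0.41 to 0.29 with a median of -0.02, and the median of all genes was 0.02. The median SE of the 40 genes was 0.13 in each comparison of 2 groups, which bounds what these libraries could show. Averaged over diets 0 of the 40 were called, where 0.17% of all genes were. There 8 of the 40 had an unadjusted p under 0.05, as did 2183 of all 12339 genes. Atg2a (-0.44 ± 0.15, adjusted p = 0.186), Gabarapl2 (0.24 ± 0.08, adjusted p = 0.186), Atg2b (-0.34 ± 0.12, adjusted p = 0.207) and Gabarap (0.30 ± 0.12, adjusted p = 0.236) had the smallest p. After the correction they were at -0.21 ± 0.08 (adjusted p = 0.259), 0.11 ± 0.05 (adjusted p = 0.335), -0.10 ± 0.07 (adjusted p = 0.529) and 0.15 ± 0.09 (adjusted p = 0.452). DESeq2 called 0 and limma voom with library weights 16, where it called 31.1% of all genes, and leaving out WT chow 3 brought 5 calls in edgeR, where 11.3% of all genes were called. For the interaction of genotype and diet DESeq2 and limma voom called 0 of the 40. In edgeR 756 of all 12339 genes had an unadjusted p under 0.05. Of the 40 there was 1, Sqstm1, with -0.37 ± 0.17 (adjusted p = 0.797). Ambra1 (0.47 ± 0.25, adjusted p = 0.797), Atg16l1 (-0.29 ± 0.16, adjusted p = 0.797) and Atg16l2 (0.39 ± 0.22, adjusted p = 0.797) followed.

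Genes around the machinery were read from 3 lists. The mTORC1, AMPK and TFEB list holds regulators that sense nutrients and control autophagy and lysosome genes, and 42 of its 43 genes were in the table. On the HFD averaged over genotypes 10 of the 42 fell and 5 rose, 35.7% of the list where 30.2% of all genes were called. After the correction 5 fell and 3 rose, 19% where 23.5% of all genes were called, and 7 of these had also been called before it. Its smallest p were those of Rragc, a Rag GTPase that recruits mTORC1 to the lysosome (-0.37 ± 0.07, adjusted p = 0.00673), and Prkag2, a regulatory subunit of AMPK (-0.60 ± 0.11, adjusted p = 0.00560). Corrected values were -0.55 ± 0.10 (adjusted p = 0.00435) for Prkag2 and -0.39 ± 0.07 (adjusted p = 0.00416) for Rragc. Lamtor5, of the Ragulator scaffold, was at 0.47 ± 0.11 (adjusted p = 0.0102) and lost its call after the correction (0.09 ± 0.05, adjusted p = 0.194), and Foxo3, a transcription factor with autophagy genes among its targets, was at -0.66 ± 0.16 (adjusted p = 0.0127) and -0.37 ± 0.10 (adjusted p = 0.0240) after the correction. Tfeb, a main activator of lysosome and autophagy genes, was at -0.03 ± 0.08 (adjusted p = 0.787) and not called. Its relative Tfe3 was at -0.41 ± 0.11 (adjusted p = 0.0150) and -0.17 ± 0.09 (adjusted p = 0.170) after the correction. Mtor fell in WT at -0.60 ± 0.16 (adjusted p = 0.0255), but was at -0.07 ± 0.08 (adjusted p = 0.600) after the correction and at 0.01 ± 0.16 (adjusted p = 0.977) in meKO. The count in this list fell to 9 without WT chow 1, WT chow 2 or WT HFD 3, where 16%, 18% and 15.9% of all genes were called. It rose to 21 without WT chow 3, where 43.2% of all genes were.

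Fusion of the autophagosome with the lysosome was covered by 23 genes, of which 7 fell and 1 rose averaged over genotypes, 34.8% where 30.2% of all genes were called. After the correction 3 fell and 1 rose, 17.4% where 23.5% of all genes were called, and all 4 had been called before. They were Tecpr1, a tether at the lysosome (-0.75 ± 0.13, adjusted p = 0.00461), Stx17, the SNARE of the finished autophagosome (-0.46 ± 0.09, adjusted p = 0.00741), Tgfbrap1, of an endosomal tethering complex (-0.57 ± 0.13, adjusted p = 0.00885), and Vamp8, the SNARE on the lysosome, which rose (0.52 ± 0.12, adjusted p = 0.00924). Stx17 and Vamp8, which pair during fusion, moved in opposite directions, and corrected values were -0.33 ± 0.07 (adjusted p = 0.00728) and 0.42 ± 0.09 (adjusted p = 0.00860). Rubcn, a negative regulator of the lipid kinase that is also needed for LC3-associated phagocytosis, fell in WT (-0.68 ± 0.17, adjusted p = 0.0222) but not after the correction (-0.27 ± 0.12, adjusted p = 0.137). Without WT chow 2 or without WT HFD 3 the count of 8 went to 4 (18% and 15.9% of all genes), and without WT chow 3 to 10 (43.2%). The 24 further receptors and kinases of selective autophagy gave 3 lower and 1 higher averaged over genotypes, and 3 lower and 2 higher after the correction. These are 16.7% and 20.8% of the list, where 30.2% and 23.5% of all genes were called. Usp30, a deubiquitinase that restrains mitophagy, was at -0.49 ± 0.10 (adjusted p = 0.00622), and Stbd1, a glycogen receptor, at 0.76 ± 0.15 (adjusted p = 0.00622). Ccpg1, a receptor for the endoplasmic reticulum, was at -0.29 ± 0.08 (adjusted p = 0.0157) and Wdfy3, a scaffold for aggregates, at -0.42 ± 0.13 (adjusted p = 0.0252). After the correction Usp30, Stbd1 and Ccpg1 were still called (-0.27 ± 0.09, adjusted p = 0.0399, then 0.63 ± 0.13, adjusted p = 0.00820, and -0.27 ± 0.07, adjusted p = 0.0145). Their count of 4 ranged from 3 to 6 over the 12 fits that each left out 1 library, where 15.9% to 43.2% of all genes were called. It was 6 without WT chow 3 or without meKO HFD 1. In meKO alone edgeR called 0 genes of the 3 lists, where 9, 5 and 4 genes of the lists, in the order above, had an unadjusted p under 0.05. Of all 12339 genes 1962 had such a p. Between genotypes edgeR called 0 on chow, where 9, 5 and 5 genes of the lists and 2447 of all genes had such a p. On the HFD it called 0, where 0 genes of the lists and 563 of all genes had.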

How the data were processed

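RNA from 12 libraries was extracted with Trizol and prepared with the TruSeq protocol, per the labels. The authors deposited 1 table of raw gene counts, whole numbers per gene and library; the submitters' processing notes name build mm10 and DESeq2, and aligner, counter, annotation and strand setting were not given in the sources used here. Every gene in it reached 0.501 CPM in 6 libraries. A total of 186 genes without a symbol held 0.440% of counts and stayed in the fit. Counts of replicate libraries differed beyond sampling noise (chi-square per degree of freedom at least 16.9).

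The counts were analysed with edgeR 4.0.16 in R 4.3.3 (TMM factors of 0.935 to 1.09, filterByExpr, which removed 0 genes, robust quasi-likelihood F test, two-sided), with 4 group means over all 12 libraries and Benjamini-Hochberg adjustment over 12339 genes; a call is an adjusted p under 0.05. The SE is the log2 difference divided by the square root of F. Scripts were tested on simulated data. Alternatives were DESeq2 1.42.0, limma 3.58.1 (voom with quality weights), other scalings and filters, leaving out libraries, and offsets per library from splines (5 degrees of freedom each) on length and GC content of the longest GENCODE M21 transcript. These alternatives were chosen after seeing the data: leaving out WT chow 1 and 2 together, and leaving out each library after the length and GC correction. The autophagy genes, pathway lists and marker lists were chosen with earlier results of these data known. Named are all 40 genes, with full values for those called (at most 12, by lowest p) in the contrast with the most calls, up to 4 with the smallest p in each other contrast, and always Ulk1, Becn1, Atg5, Atg7, Atg16l1, Map1lc3b, Gabarap and Sqstm1; of each other list, the called genes with the lowest p (at most 4), and Tfeb, Tfe3, Mtor and Rubcn.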

Additional observations from a re-analysis of the deposited data

How the results depend on the processing

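Counts of the 40 genes called depended on few libraries, as did those of all genes, whose shares called are the percentages below. For diet in WT (9 called) the count was 5 with median-of-ratios scaling (21.1%) and 5 in a fit of the compared libraries alone (16.7%). It was 26 with limma voom and quality weights (52%). Leaving out 1 library in turn gave 0 to 17 (0.778% to 39.9%), and 0 to 9 after the length and GC correction (0.948% to 19.2%). For diet averaged over genotypes (13 called) it was 27 with voom (51%). Leaving out 1 library gave 6 to 22 (15.9% to 43.2%), and 7 to 15 after the correction (12.9% to 28%). For diet in meKO (0 called) DESeq2 gave 1 (1.83%), and leaving out 1 library gave 0 to 1 (0.0081% to 1.09%). For genotype on chow (0 called) DESeq2 gave 1 (4.56%), voom 14 (32.8%), and leaving out 1 library 0 to 8 (0.0162% to 20.6%). For genotype averaged over diets (0 called) voom gave 16 (31.1%), and leaving out 1 library 0 to 5 (0.0648% to 11.3%). Genotype on the HFD and the interaction stayed at 0 in each alternative run. Atg10 turned from 0.02 to -0.32 for diet averaged over genotypes after the correction (edgeR adjusted p = 0.0126). The cause was not tested. With library totals the median of all genes for diet in WT was -0.12, against -0.03 with TMM. Over single genes and alternatives, 2188 values kept their side of the threshold, 205 lost their call and 64 gained one. A further 1 changed direction with a call in at least 1 of the 2 fits compared. Values that changed direction without a call in either fit are counted among the 2188. The fit that keeps 1 WT chow library is among the alternatives counted.

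No paired analysis was possible because the labels give the groups no shared replicate numbers. With 3 libraries per group, the median SE of the 40 genes was 0.13 (log2) for 2 groups and 0.092 for averaged contrasts. Counts of a gene ran from 87 to 17924 per library, so the spread between libraries, not counting error, limits most values.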
